A study of Mus musculus with 16 samples.

Results

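The comparison described here is that of cultured mouse spermatogonial stem cells treated with siRNA against Pou3f1 with the same cells treated with a negative control siRNA. It rests on 8 of the series' 16 expression arrays, 4 per group, chosen by their titles. An siRNA is a short double-stranded RNA that leads the cell to destroy a messenger RNA of matching sequence. Both groups came from cultures of Thy1-positive germ cells of C57BL/6 background, kept in serum-free medium with FGF2 (1 ng/ml), GDNF (20 ng/ml) and GFRA1 (150 ng/ml), the soluble GDNF receptor, and RNA was taken after 30 h of siRNA. The other 8 arrays hold knockdowns of Etv5 and of Bcl6b, 4 each, under the same conditions, and are used below only to see where the Pou3f1 knockdown differs from them. The siRNA sequences, the age and number of the mice, and whether replicates are separate cultures are not given in the sources used here, so the p-values cover the spread among these arrays, part or all of which may be technical. The number of arrays limits the precision.

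Pou3f1 (also known as Oct6) encodes a transcription factor of the POU family. These proteins carry a bipartite DNA-binding domain that recognises the octamer sequence ATGCAAAT, and Pou3f1 is known for its part in Schwann cells, skin and the early neural plate and as a gene that GDNF raises in spermatogonial stem cells. The interferon response, to which many of the largest falls belong, is a programme of antiviral genes switched on by STAT and IRF transcription factors through an element with 2 GAAA blocks, the interferon-stimulated response element.

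Values are linear probe set intensities as the authors deposited them, and differences are on the log2(value + 1) scale, knockdown minus control, so the change of dim genes is understated. The median intensity over all probe sets lay between 15.6 and 16.3 on the 8 arrays, and the 3' minus 5' log2 signal of Gapdh between -0.51 and -0.45. Of 18193 genes, each read from its brightest probe set, 11078 were bright enough to test. Called means an adjusted p under 0.05 by limma, adjusted after Benjamini and Hochberg over the tested genes. The calls numbered 1144 (10.3% of the tested genes), of which 432 were higher (3.9%) and 712 lower (6.43%), and 2954 genes had an unadjusted p under 0.05. Higher genes made up 37.8% of the calls, and 48.4% (569 higher, 607 lower) after quantile normalization. In 6.41% of the tested genes all 4 knockdown arrays lay above all 4 control arrays, and in 11.7% all lay below. These counts depend on single arrays. Without control replicates 1, 2 and 3 in turn, 266, 280 and 270 genes were called higher. Lower calls numbered 461 and 441 without Pou3f1 knockdown replicates 2 and 3, and 403, 437, 382 and 468 without each control array.

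Most of the called genes lay outside the interferon response, while the largest falls lay inside it. A list of 173 interferon-stimulated genes had 140 members on the array and 125 bright enough to test, of which 85 (68%) were called lower by limma, none higher and 40 not called. The other 627 lower calls, 88.1% of all, and all 432 higher calls were genes outside that list (5.72% and 3.94% of 10953 tested there). Their changes were small. The median log2 difference was -0.21 over the lower calls outside the list and 0.26 over the higher ones, against -0.49 over the lower interferon calls and -0.025 over all tested genes. At 1.5-fold or more, 9 genes outside the list fell and 27 rose, beside 27 falls of interferon genes. At 2-fold or more the falls were 6 interferon genes and none outside the list, and the rises were Ankrd29, Exoc4 and Phex. Without single arrays, the 627 lower calls outside the list became 380 and 365 (Pou3f1 knockdown replicates 2 and 3) and 324, 364, 310 and 382 (control replicates 1 to 4).

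**Figure D1:**
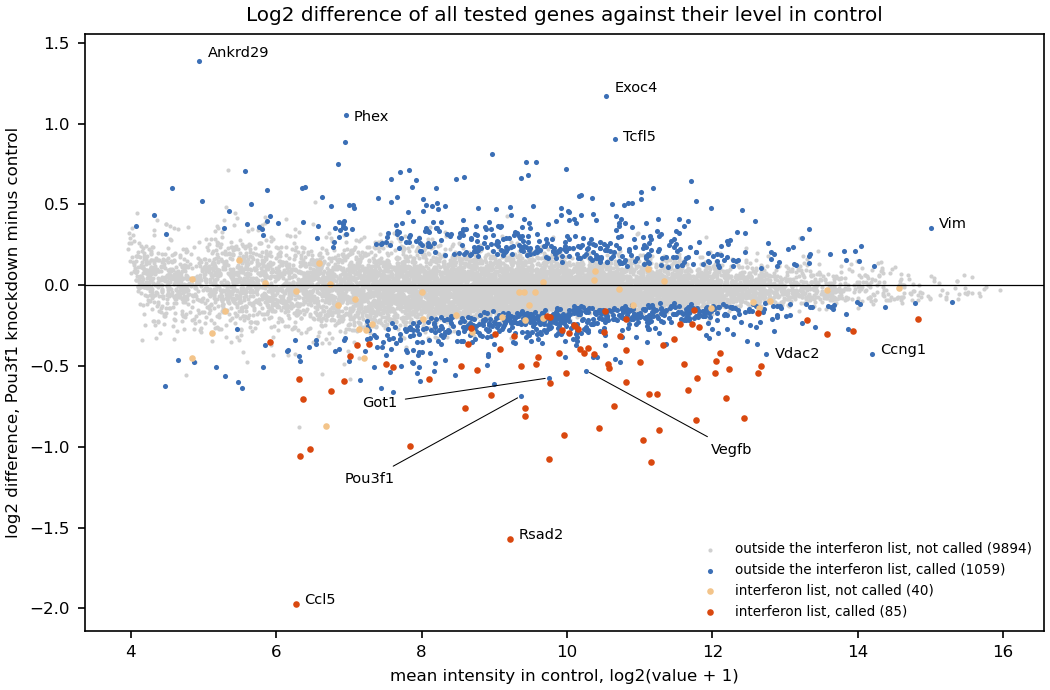
Log2 difference between Pou3f1 knockdown and control (vertical axis) of the 11078 tested genes against their mean intensity in control on the log2(value + 1) scale (horizontal axis), 1 point per gene, n = 4 arrays per group. Called genes of the interferon list lie below 0, down to Ccl5 at -1.97, and most called genes outside it lie within 0.5 of 0 on either side.

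The target was lower but remained well measured, with a mean of 660.9 ± 21.8 in control and 414.9 ± 71.7 after knockdown (SD, n = 4). Pou3f1 read 692, 648, 659 and 644 in control and 393, 354, 519 and 393 after Pou3f1 knockdown. All 4 knockdown arrays lay below all 4 control arrays, with replicate 3 the highest of them. The log2 difference was -0.68 ± 0.095 (SE, adjusted p 0.000926). An exact two-sided permutation test of this difference gave p = 0.0286, the smallest that 4 arrays against 4 allow. A dimmer probe set of the gene went from 209.8 ± 10.2 to 119 ± 25.0 (SD, n = 4), a difference of -0.84. Of 12 genes of the POU list on the array, which include the coactivator gene Pou2af1, 5 were bright enough to test and Pou3f1 alone was called. Pou5f1 (Oct4), the pluripotency factor, differed by -0.079 (adjusted p 0.619) and Pou6f1 by -0.27 (0.157). Pou3f2, Pou3f3 and Pou3f4, the closest relatives of Pou3f1, read below the array median in both groups.

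Ccl5 and Rsad2 had the largest falls of all tested genes, and the 8 largest interferon falls are described first. Ccl5 read 90.0, 69.2, 73.8 and 71.0 in control and 24.4, 17.0, 14.4 and 19.6 after Pou3f1 knockdown. This gene encodes a chemokine that draws T cells and macrophages. Every knockdown array was below every control array, and the difference was -1.97 ± 0.14 (SE, adjusted p 1.1e-05). Rsad2 read 482.5, 778, 623 and 487 in control and 228, 191, 183 and 181 after Pou3f1 knockdown. Rsad2 encodes viperin, an enzyme that makes a chain-terminating nucleotide against viral RNA synthesis. All its control arrays lay above the knockdown arrays, with control replicate 2 the highest, and the difference was -1.57 ± 0.14 (SE, adjusted p 4.19e-05). The next largest falls were those of the chemokine gene Cxcl10 (-1.09), the 2-5A synthetase gene Oas1a (-1.08) and its relative Oasl1 (-1.01), Cmpk2 (-1.05), the RNA helicase gene Ddx60 (-0.99) and Usp18 (-0.96), which encodes the protease that removes ISG15. Averaged over its probe sets, Cmpk2 differed by -0.58. The adjusted p of these 6 lay between 0.000178 and 0.00636, and each kept its call with any 1 array left out. The Oas1a probe set may also bind transcripts of its close paralogues, so its value is uncertain between them.

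The promoters of these genes were searched for the interferon-stimulated response element. RefSeq's mouse promoter windows (GRCm38.p6, 250 bases before to 50 after a gene's start) held 6 of the 8 interferon genes just named, and 4 of them carried the core of the response element, searched on both strands as GAAA, any 2 bases and GAAA. The first 3 of these 4 by size of the fall are printed over the 250 bases before the gene's start, on the gene's strand. Matches are in capitals (on the opposite strand in Rsad2). They were chosen because they carry the match, which most genes with a window lack, in the list and outside it.
Rsad2, chr12:26456453-26456702, minus strand: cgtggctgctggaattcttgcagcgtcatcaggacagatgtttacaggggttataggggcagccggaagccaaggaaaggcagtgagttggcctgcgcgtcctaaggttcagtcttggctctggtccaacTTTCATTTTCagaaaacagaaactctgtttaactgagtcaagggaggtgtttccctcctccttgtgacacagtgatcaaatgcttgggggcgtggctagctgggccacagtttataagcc
Oas1a, chr5:120907526-120907775, minus strand: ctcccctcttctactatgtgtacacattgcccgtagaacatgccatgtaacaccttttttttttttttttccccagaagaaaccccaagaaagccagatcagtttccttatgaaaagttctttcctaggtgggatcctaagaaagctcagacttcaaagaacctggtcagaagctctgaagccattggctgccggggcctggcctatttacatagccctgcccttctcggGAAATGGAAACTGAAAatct
Cxcl10, chr5:92348890-92349139, minus strand: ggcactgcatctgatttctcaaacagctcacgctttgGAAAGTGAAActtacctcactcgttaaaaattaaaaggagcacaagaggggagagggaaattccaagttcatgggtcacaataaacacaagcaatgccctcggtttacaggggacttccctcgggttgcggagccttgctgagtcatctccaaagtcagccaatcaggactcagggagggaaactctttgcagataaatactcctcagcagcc
In Rsad2 the match starts 120 bases before the gene, in Cxcl10 213 bases before it, and in Oas1a 2 overlapping matches start 20 and 14 bases before it. Of the interferon genes called lower, 68 had a window and 31 of these (45.6%) held the core, against 6 of 29 (20.7%) of the interferon genes tested and not called. Outside the list it was found in 15 of 523 lower genes (2.87%) and 7 of 348 higher genes (2.01%). It was found in 322 of the 9033 tested genes with a window (3.56%), and 3.44% of all 32851 windows held it.

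The octamer, the sequence POU proteins recognise, was searched in the same windows. Outside the interferon list it was found in 8 of 523 lower genes (1.53%) and 4 of 348 higher genes (1.15%), beside 137 of the 9033 tested genes (1.52%) and 1.74% of all windows. Among the genes named below it lay in windows of Egr2 and of Tnc, the gene of the matrix protein tenascin C. The window of Tnc, which rose more than Egr2, is printed with the octamer in capitals, though the mean over the probe sets of Tnc was not called.
Tnc, chr4:64047016-64047265, minus strand: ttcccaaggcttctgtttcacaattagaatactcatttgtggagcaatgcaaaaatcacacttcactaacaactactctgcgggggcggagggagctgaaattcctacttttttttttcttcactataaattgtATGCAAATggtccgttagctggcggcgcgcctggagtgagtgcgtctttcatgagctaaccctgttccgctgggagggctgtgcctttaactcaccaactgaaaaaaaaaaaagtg
The match starts 116 bases before that gene start, and it is a match of letters in this window only.

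Outside the interferon list, Got1 and Vdac2 had among the smallest adjusted p of the named falls. Got1 encodes the cytosolic aspartate aminotransferase of the malate-aspartate shuttle. Got1 read 824, 883, 871 and 878 in control and 567, 586, 628 and 543 after Pou3f1 knockdown. The groups lay apart by more than the range within either, with a difference of -0.57 ± 0.052 (SE, adjusted p 5.29e-05). Vdac2 encodes a channel of the outer mitochondrial membrane. Vdac2 read 6962, 6784, 6820 and 6768 in control and 5297, 5014, 5287 and 4775 after Pou3f1 knockdown. Every knockdown array lay below every control array, with a difference of -0.43 ± 0.037 (SE, adjusted p 4.66e-05). Agpat3, an acyltransferase gene of phospholipid synthesis, fell by 0.61 on the log2 scale. Agpat3 read 510, 513, 493 and 525 in control and 325, 338, 291.5 and 384 after Pou3f1 knockdown. All its knockdown arrays lay below control (adjusted p 0.000359). Pfkfb4 and Scly were dimmer. Pfkfb4, which encodes an enzyme that sets the level of fructose 2,6-bisphosphate and so the pace of glycolysis, read 35.03 ± 1.52 (SD, n = 4) in control and 24.5 ± 3.40 after knockdown and differed by -0.51 ± 0.10 (SE, adjusted p 0.00781). Scly, which encodes selenocysteine lyase, read 21.2 ± 4.82 (SD, n = 4) in control and 13.3 ± 2.20 after knockdown and differed by -0.63 (adjusted p 0.0208). Its 4 control arrays lay above the median of their array and its 4 knockdown arrays below, so it passed the filter only through control. Such entry favours a fall, so the call of Scly gives no support of its own. Scly was bright enough to test in 4 of the 8 fits that leave out 1 array, and it lost its call without Pou3f1 knockdown replicates 2 or 3 (adjusted p up to 0.0619). Averaged over its probe sets it differed by -0.35.

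Vegfb, Sema7a, Itga5, Adamts7 and Agrn encode secreted, cell surface or matrix proteins and were lower. Vegfb encodes a ligand of the receptor VEGFR1. Vegfb read 1231, 1202, 1266 and 1200 in control and 871, 815, 878 and 834 after Pou3f1 knockdown. The gap between the groups was wider than the range within either, and the difference was -0.53 ± 0.041 (SE, adjusted p 2.23e-05). Sema7a, which encodes a membrane-anchored semaphorin, read 141 ± 12.9 (SD, n = 4) in control and 93.7 ± 14.1 after knockdown (difference -0.59 ± 0.11 SE, adjusted p 0.00533). Itga5, the alpha subunit gene of the fibronectin receptor, read 288 ± 44.1 (SD, n = 4) in control and 198.5 ± 22.98 after knockdown (difference -0.53 ± 0.11 SE, adjusted p 0.0113). Adamts7, a matrix protease gene, had the widest spread of the group. Adamts7 read 153, 186, 171 and 184 in control and 150.3, 122.5, 77.0 and 107 after Pou3f1 knockdown. Knockdown replicate 1 came close to the lowest control array, and the difference of -0.64 (adjusted p 0.0263) lost its call without control replicates 2, 3 or 4 (adjusted p up to 0.077), and in the fit on means over probe sets (adjusted p 0.0531). In that fit Sema7a (-0.28) and Itga5 (-0.20) changed less and kept their call. Agrn, the gene of the heparan sulfate proteoglycan agrin, read 1125 ± 66.0 (SD, n = 4) in control and 883 ± 35 after knockdown (-0.35, adjusted p 0.00135).

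Other named falls had diverse roles. Ralgapa2, which encodes a GTPase-activating protein for Ral, read 38.1 ± 5.02 (SD, n = 4) in control and 25.6 ± 3.87 after knockdown (difference -0.56 ± 0.12 SE, adjusted p 0.0132). Bbs5, a subunit gene of the BBSome that moves membrane proteins in cilia, read 248.6 ± 4.16 (SD, n = 4) in control and 175.5 ± 19.2 after knockdown (difference -0.51 ± 0.078 SE, adjusted p 0.00184). Tbc1d23, whose protein captures endosomal vesicles at the Golgi, read 288.5 ± 15.8 (SD, n = 4) in control and 206.5 ± 16.2 after knockdown (difference -0.48 ± 0.07 SE, adjusted p 0.00135). Lmnb2, the gene of lamin B2 of the nuclear envelope, read 43.6 ± 3.13 (SD, n = 4) in control and 28.6 ± 3.98 after knockdown (difference -0.60 ± 0.11 SE, adjusted p 0.00445), with knockdown replicate 3 below the rest at 22.7. The transmembrane gene Evi2a read 161 ± 9.20 (SD, n = 4) in control and 114 ± 11.7 after knockdown (difference -0.51 ± 0.083 SE, adjusted p 0.00279), and Nxpe3 read 55.4 ± 2.61 (SD, n = 4) in control and 38.7 ± 1.80 after knockdown (-0.51). Averaged over probe sets, Evi2a and Nxpe3 each differed by -0.24 and kept their call.

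A pair of falls outside the list belonged to genes of innate immunity or leukocytes. Sting1 encodes the adaptor that turns cytosolic DNA into an interferon signal. Sting1 read 161, 207, 215 and 167 in control and 138.5, 119, 127 and 128.5 after Pou3f1 knockdown. Its difference was -0.54 ± 0.10 (SE, adjusted p 0.00538). Plac8, the gene of a small cysteine-rich protein expressed in placenta and leukocytes, read 352 ± 32.4 (SD, n = 4) in control and 240.5 ± 40.1 after knockdown and differed by -0.56 ± 0.11 (SE, adjusted p 0.00796). Both lie outside the interferon list by its composition only, and the list is not complete. Gm4951, Gm20559 and Trim30d, chosen after their values were seen, differed by -0.66, -0.49 and -0.18 and are likewise outside it.

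**Figure D2:**
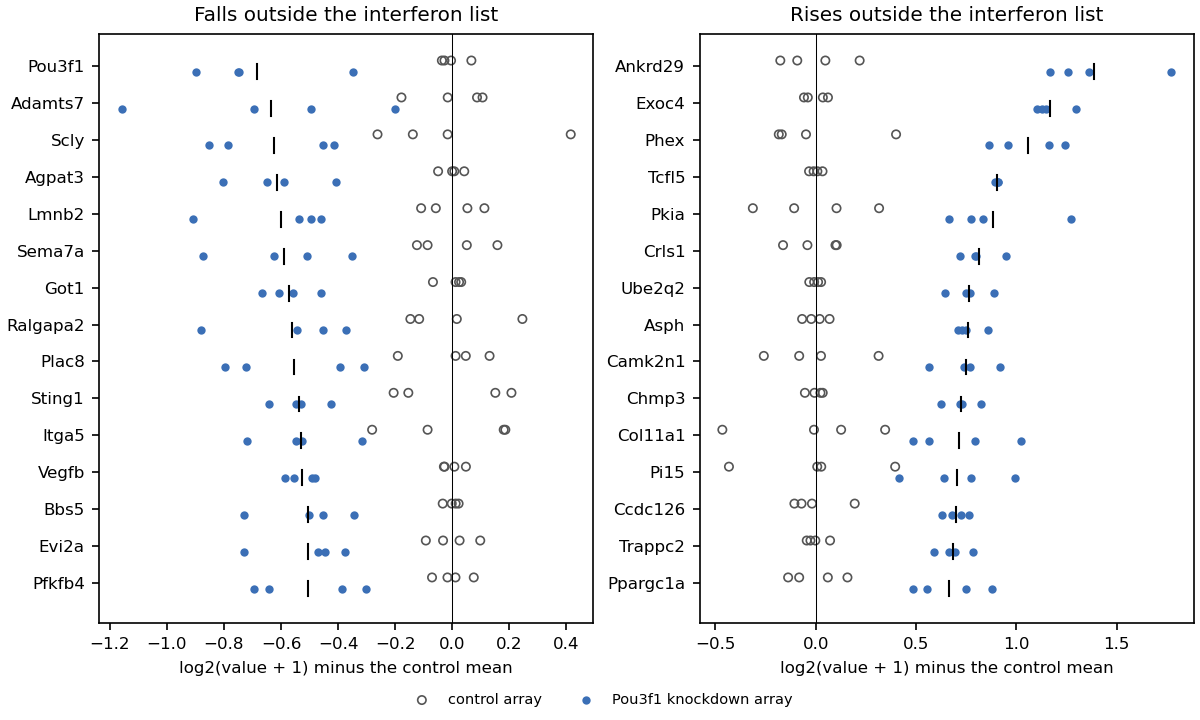
Log2(value + 1) of each array minus the mean of the 4 control arrays for the 15 largest falls (left) and the 15 largest rises (right) outside the interferon list among genes whose groups do not overlap. Open circles are control arrays, filled circles Pou3f1 knockdown arrays and bars their mean. Falls run from -0.68 (Pou3f1) to -0.51 and rises from 0.67 (Ppargc1a) to 1.39 (Ankrd29), with the knockdown arrays of Tcfl5 closest together.

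The largest rises were larger than the largest falls outside the interferon list. These rises too were picked among genes whose groups do not overlap. Exoc4, Chmp3 and Trappc2 encode proteins of membrane traffic. Exoc4 encodes Sec8, a subunit of the exocyst that tethers secretory vesicles to the plasma membrane. Exoc4 read 1424, 1443, 1547 and 1520 in control and 3245, 3648, 3181 and 3283 after Pou3f1 knockdown. Every knockdown array lay far above every control array, with a difference of 1.17 ± 0.048 (SE, adjusted p 7.46e-08). Its 3 other bright probe sets with control means above 200 differed by 0.92, 1.05 and 0.79, and a dim one (mean 32.5 in control) by 0.17. Chmp3, a subunit gene of the ESCRT-III complex that cuts membrane necks, rose as well. Chmp3 read 971, 1033, 1025 and 1004 in control and 1657, 1670, 1554 and 1782 after Pou3f1 knockdown. Every knockdown array lay above every control array, and the difference was 0.72 ± 0.046 (SE, adjusted p 6.34e-06). Trappc2, a subunit gene of the TRAPP complex of transport from the endoplasmic reticulum to the Golgi, read 704 ± 25.2 (SD, n = 4) in control and 1132 ± 63.7 after knockdown (difference 0.68 ± 0.049 SE, adjusted p 1.1e-05).

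Tcfl5, Ppargc1a, Pkia, Camk2n1 and Ube2q2, which encode regulatory proteins, were also higher. Tcfl5 encodes a basic helix-loop-helix factor of testicular germ cells. Tcfl5 read 1653, 1578, 1603 and 1624 in control and 3020, 3034, 3031 and 3003 after Pou3f1 knockdown. The knockdown arrays lay closer together than the control arrays, and the difference of 0.90 ± 0.032 (SE, adjusted p 2.43e-08) had the smallest adjusted p of the genes named here. Its probe set is of a type that can match several transcripts. Ppargc1a, the coactivator gene of mitochondrial biogenesis, read 382 ± 35.9 (SD, n = 4) in control and 608.5 ± 76.2 after knockdown (difference 0.67 ± 0.09 SE, adjusted p 0.000808). Pkia encodes an inhibitor of protein kinase A. Pkia read 97.0, 129.8, 112 and 150.5 in control and 216, 192, 207 and 293 after Pou3f1 knockdown. Its knockdown replicate 4 was the highest array by a margin, and the difference was 0.88 ± 0.14 (SE, adjusted p 0.00266). Camk2n1, which encodes an inhibitor of the calcium-dependent kinase CaMKII, read 114 ± 19.5 (SD, n = 4) in control and 191 ± 19.1 after knockdown (difference 0.75 ± 0.11 SE, adjusted p 0.0017). Ube2q2, a ubiquitin-conjugating enzyme gene, read 763 ± 13.4 (SD, n = 4) in control and 1298 ± 91.2 after knockdown (0.76, adjusted p 7.13e-06).

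The largest rise of all was that of a dim gene. Ankrd29 read 26.1, 27.7, 30.6 and 34.6 in control and 77.5, 103, 67.5 and 72.0 after Pou3f1 knockdown. Ankrd29 encodes a protein of ankyrin repeats, and its difference was 1.39 ± 0.13 (SE, adjusted p 6.95e-05). Phex, the gene of a membrane peptidase that governs phosphate balance, read 123 ± 25.4 (SD, n = 4) in control and 254.5 ± 30.6 after knockdown (difference 1.06 ± 0.13 SE, adjusted p 0.000352). Crls1, the gene of cardiolipin synthase of the inner mitochondrial membrane, read 499 ± 43.4 (SD, n = 4) in control and 878 ± 58.8 after knockdown (difference 0.81 ± 0.068 SE, adjusted p 3.22e-05). Asph, an aspartate hydroxylase gene, rose from 693 ± 28.1 (SD, n = 4) to 1174 ± 56.3 (0.76), but its probe sets disagreed, and another bright one went from 352 to 347 (-0.031). Col11a1, a minor fibrillar collagen gene, read 227 ± 50.9 (SD, n = 4) in control and 369 ± 63.6 after knockdown (0.71, adjusted p 0.0137). Pi15, a peptidase inhibitor gene, read 46.5 ± 10.9 (SD, n = 4) in control and 75.7 ± 12.8 after knockdown (0.70, adjusted p 0.0166). Ccdc126 read 208 ± 20.2 (SD, n = 4) in control and 337.5 ± 13.6 after knockdown (difference 0.70 ± 0.072 SE, adjusted p 0.000123). These 15 rises kept their call with any 1 array left out. They also kept it in the fit on the mean of all probe sets of a gene, dim ones included, where 8 moved by over 1.5 times: Phex to 0.55, Crls1 to 0.49, Chmp3 to 0.45, Col11a1 to 0.46, Ppargc1a to 0.41, Pi15 to 0.40, Camk2n1 to 0.39 and Asph to 0.18. Bright probe sets also disagreed in size. A second one of Crls1 went from 589 to 663 (0.17) and one of Col11a1 from 213 to 245 (0.20). The other bright ones of Ppargc1a differed by 0.62, 0.30, 0.29 and 0.185.

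The same genes were set against the other 2 knockdowns, which share the control arrays with this one. For Exoc4 the difference from control was 1.17 in Pou3f1, 1.105 in Etv5 and 1.06 in Bcl6b knockdown. For Tcfl5 the 3 values were 0.90, 0.89 and 0.84, and for Phex 1.06, 1.04 and 1.18. Across the 15 rises the Etv5 values ran from 0.41 (Ccdc126) to 1.31 (Ankrd29) and the Bcl6b values, from replicates 2 to 4, from 0.39 (Ccdc126) to 1.18 (Phex). A rise seen in all 3 knockdowns against 1 set of control arrays cannot be told apart from a low level in the control siRNA group. Tested directly between knockdowns, without the control arrays, 12 of the 15 were not called against either. Camk2n1 was lower than in Etv5 knockdown (-0.48, adjusted p 0.0096). Ankrd29 was higher than in Bcl6b knockdown (0.59, adjusted p 0.0495; 0.51, adjusted p 0.414, with Bcl6b replicate 1). Ccdc126 was higher than both (0.29, adjusted p 0.0163, and 0.31, adjusted p 0.0225; the second 0.25, adjusted p 0.476, with replicate 1).

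The direct tests show where the Pou3f1 knockdown stands apart. Against Etv5 knockdown 325 of 11087 genes were called (2.93%), 111 higher (1%) and 214 lower (1.93%). Against Bcl6b knockdown replicates 2 to 4, 385 of 11054 were called (3.48%), 137 higher (1.24%) and 248 lower (2.24%). Bcl6b knockdown replicate 1 was left out of that fit because it stands apart, with a mean correlation of 0.975 with the other arrays against 0.996 or more elsewhere. Its 3' minus 5' log2 signal was 1.03 for Gapdh and 3.08 for Actb. On the 8 Pou3f1 knockdown and control arrays these lay between -0.51 and -0.45 and between 0.62 and 0.76. Results given with replicate 1 thus include an array of unlike signal, and the cause was not tested. With replicate 1, 73 genes were called. The first count became 185 and 206 without Pou3f1 knockdown replicates 2 and 3 and 175 and 155 without Etv5 knockdown replicates 1 and 4. The second became 211, 184 and 248 without Bcl6b knockdown replicates 2, 3 and 4. Genes lower than control and lower than both other knockdowns numbered 74 of the 125 tested in the interferon list (44 with Bcl6b replicate 1). Outside the list they numbered 28 of 10953 (7 with it). The sign of the difference from Bcl6b knockdown turned with replicate 1 for 1 gene of each group, Stat2 (from -0.58 to 0.49) and Got1. Only 2 genes, Ccdc126 and Mpzl2, were higher in all 3 tests (none with it). These tests share the Pou3f1 arrays and are not independent of each other. For Ccl5, Rsad2, Cxcl10, Oas1a, Cmpk2, Oasl1, Ddx60 and Usp18, direct differences from Bcl6b knockdown ran from -1.34 (Usp18) to -2.77 (Ccl5). Each was larger than that gene's fall from control given above, so these genes lay above control in Bcl6b knockdown replicates 2 to 4. Their direct differences from Bcl6b knockdown thus hold more than the fall from control.

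The 28 genes outside the list include the target itself and several of the precise falls above. For Vegfb the difference from control was -0.53 in Pou3f1, 0.074 in Etv5 and -0.048 in Bcl6b knockdown, and the direct differences were -0.60 (adjusted p 0.000114) and -0.48 (0.00029). For Got1 the 3 values were -0.57, -0.11 and -0.26, and the direct differences -0.46 (adjusted p 7e-04) and -0.31 (0.0184). With Bcl6b replicate 1 included, the direct difference of Vegfb from Bcl6b knockdown was -0.54 (adjusted p 0.0195), while that of Got1 turned to 0.026 (0.974). Vdac2 was lower directly by 0.31 and 0.28 (adjusted p 0.00204 and 0.00588), the second -0.20 with replicate 1 (0.647), and Plac8 by 0.58 and 0.90 (0.0131 and 0.00135). Tbc1d23, Nxpe3 and Airn were the others of the 8 largest with a gene name. Airn, the antisense RNA of the Igf2r locus, read 78.2 ± 15.6 (SD, n = 4) in control and 56.9 ± 6.01 after knockdown (-0.44, adjusted p 0.0461), its probe sets disagreed, and it lost its call without Pou3f1 knockdown replicates 1, 2, 3 or 4 or control replicates 1, 2 or 3 (adjusted p up to 0.102), and with the mean over probe sets (-0.17, adjusted p 0.217). The rest, chosen after their values were seen like Agrn, were smaller falls, among them the RNA helicase genes Dhx35 (-0.36) and Ddx24 (-0.23), the transcription factor genes Zbtb20 (-0.34), Zfhx4 (-0.31) and Nfat5 (-0.28), the checkpoint kinase gene Atm (-0.21), the ubiquitin ligase gene Huwe1 (-0.14), and Timp2 (-0.27), the gene of an inhibitor of matrix metalloproteinases. Genes that keep their call with Bcl6b replicate 1 included were Vegfb, Plac8, Agrn, Zbtb20, Airn, Gm4951 and Gm20559. Except for Vegfb, these genes lay above control in Bcl6b knockdown replicates 2 to 4, by 0.24 (Agrn) to 0.65 (Zbtb20). Their direct differences thus hold more than the fall from control. Mpzl2, an adhesion molecule gene, read 2982 ± 196 (SD, n = 4) in control and 3733 ± 262 after knockdown (0.32) and differed by -0.39 in Etv5 and by 0.015 in Bcl6b knockdown.

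Not all falls set Pou3f1 knockdown apart. Lmnb2 differed from control by -0.60, -0.60 and -0.79 in the 3 knockdowns, Itga5 by -0.53, -0.54 and -0.64, and Agpat3 by -0.61, -0.44 and -0.49, and none of these was called directly. Sema7a was lower still in Etv5 knockdown (-1.04), with a direct adjusted p of 0.0528. Sting1 was lower than in Bcl6b knockdown (-0.59, adjusted p 0.00153; -0.52, adjusted p 0.0935, with replicate 1) and not called against Etv5 (-0.16, 0.424). Of the higher calls 44.9% and of the lower calls outside the list 36.8% lay within 0.1 of both other knockdowns, against 52.7% of all tested genes and none of the lower interferon calls.

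**Figure D3:**
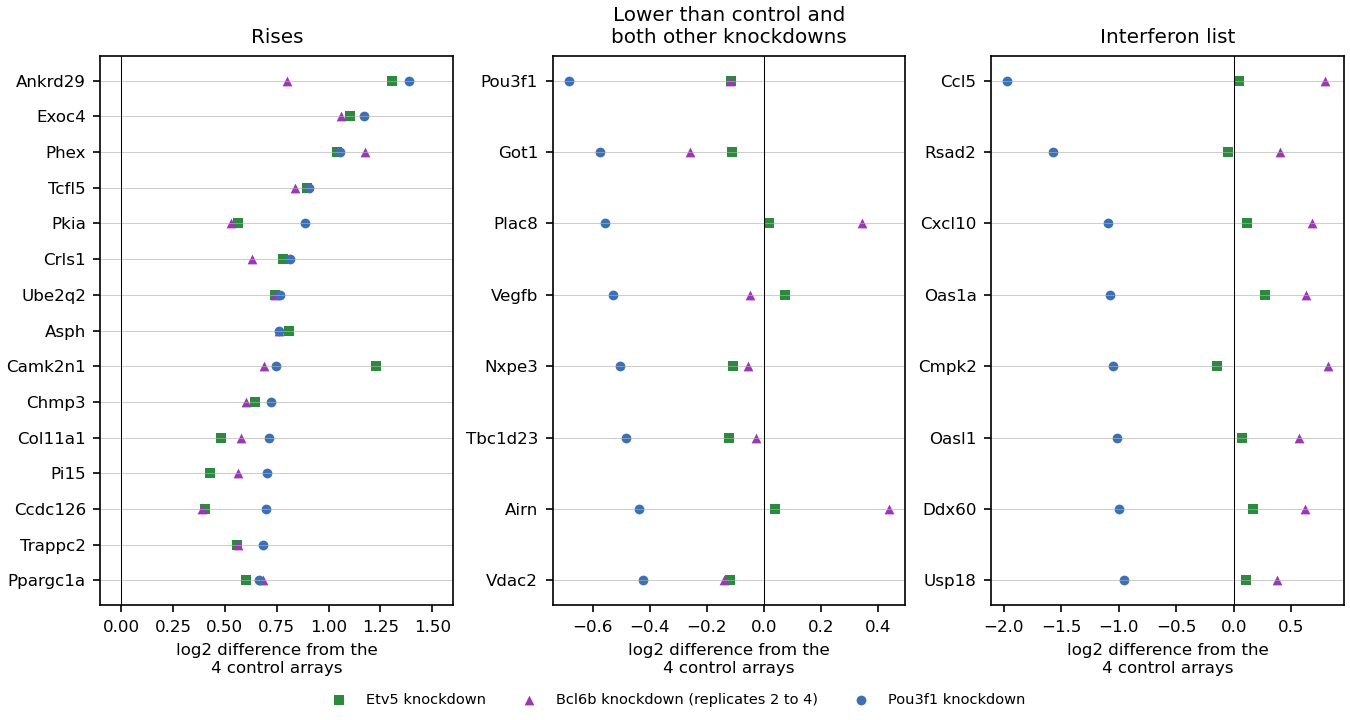
Log2 difference from the 4 control arrays in Pou3f1 (circles), Etv5 (squares) and Bcl6b knockdown (triangles, replicates 2 to 4), 4, 4 and 3 arrays, for the 15 largest rises (left), the 8 largest falls outside the interferon list that were lower than both other knockdowns in direct tests (middle) and the 8 largest interferon falls (right). In the left panel all 3 symbols of each gene lie above 0. In the other panels the circles stand apart, from -0.43 down to -0.68 in the middle and from -0.96 down to -1.97 on the right.

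The gene lists described here and below, like the interferon list, were chosen with earlier results of these data known. Their shares called describe the lists and are no test against the share of all tested genes. Among regulators of stem cell maintenance, 28 were tested and 5 were called, all higher (17.9%, against 10.3% of all tested genes), with a list median of 0.068. Ret encodes the signalling receptor for GDNF. Ret read 697, 721, 727 and 691 in control and 958, 870.2, 941 and 932 after Pou3f1 knockdown. The groups did not overlap and the difference was 0.38 ± 0.045 (SE, adjusted p 0.000285), but a second bright probe set of Ret went from 623 ± 32.7 to 605 ± 66.2 (-0.046), and the mean over probe sets was not called (0.17, adjusted p 0.0661). The other rises were those of Shisa6 (0.31), Sox3 (0.25), Egr2 (0.18) and Zbtb16 (0.14), the gene of the self-renewal factor PLZF. Their calls rested on single arrays. Shisa6 lost its call without Pou3f1 knockdown replicate 2 or control replicate 1 (adjusted p up to 0.0706), Sox3 without Pou3f1 knockdown replicates 2, 3 or 4 or control replicates 2, 3 or 4 (adjusted p up to 0.117), Egr2 without Pou3f1 knockdown replicate 3 or control replicates 1, 2 or 3 (adjusted p up to 0.0711), and Zbtb16 without Pou3f1 knockdown replicates 1, 2 or 3 or control replicates 1, 2 or 3 (adjusted p up to 0.122). Sox3 and Zbtb16 also lost it with the mean over probe sets (0.14 and 0.086, adjusted p 0.0765 and 0.298). The GDNF-responsive genes Etv5 (0.047, adjusted p 0.499), Bcl6b (0.13, 0.199), Lhx1 (0.14, 0.332), Id4 (0.16, 0.0955) and Gfra1 (0.088, 0.274), which encodes the GDNF co-receptor, were not called. Directly, Ret was higher than in Etv5 knockdown (0.39, adjusted p 0.00238) and not called against Bcl6b knockdown (0.087, 0.438).

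In the FGF and MAP kinase list, 4 of 22 tested genes were called, all lower (18.2%), with a median of -0.044. Ccnd1 encodes cyclin D1, which drives entry into the cell cycle. Ccnd1 read 5996, 5607, 5663 and 5482 in control and 4570, 4297, 4372 and 4645 after Pou3f1 knockdown. Its difference was -0.35 ± 0.038 (SE, adjusted p 0.000201), beside -0.34 in Etv5 and -0.54 in Bcl6b knockdown. The transcription factor genes Fosl1 (-0.26), Myc (-0.25) and Egr1 (-0.22) fell less. Fosl1 lost its call without Pou3f1 knockdown replicates 2 or 3 or control replicates 2 or 4 (adjusted p up to 0.092), Myc without Pou3f1 knockdown replicates 1, 2 or 3 or control replicates 1, 3 or 4 (adjusted p up to 0.101), and Egr1 without Pou3f1 knockdown replicate 2 or control replicates 1, 2, 3 or 4 (adjusted p up to 0.11), and with the mean over probe sets (adjusted p 0.0623). The feedback inhibitor genes Dusp6 (0.038, adjusted p 0.755), Spry2 (0.069, 0.504) and Spry4 (0.17, 0.13) were not called.

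Among genes of differentiation, meiosis and germ cell identity the shares called were 11.8%, 5% and 11.1%, near or below the 10.3% of all tested genes. In spermatogonial differentiation, Sox3, which is also in the maintenance list, was higher and Ccnd2 (-0.19) lower, of 17 tested. Ccnd2's groups overlapped, its probe sets disagreed, and it kept its call only without Pou3f1 knockdown replicate 1 or control replicate 4 (adjusted p up to 0.14). Averaged over probe sets it was not called (-0.098, adjusted p 0.17). In meiosis, Rec8, the cohesin gene, was lower (-0.28, adjusted p 0.012) and the remaining 19 tested genes were not called. In germ cell identity, Tcfl5 was higher and Prmt5, an arginine methyltransferase gene, lower (-0.14), of 18; Prmt5 lost its call without Pou3f1 knockdown replicates 2, 3 or 4 or control replicates 1, 2, 3 or 4 (adjusted p up to 0.125). Tcl1, the gene of a cofactor of the kinase AKT, was the largest rise in the pluripotency list. Tcl1 read 1091, 1273, 1168 and 1150 in control and 1766, 1735, 1905 and 1509 after Pou3f1 knockdown. Its difference was 0.56 ± 0.068 (SE, adjusted p 0.000359), beside 0.27 in Etv5 and 0.52 in Bcl6b knockdown. Klf5 was lower there (-0.28) and lost its call without Pou3f1 knockdown replicates 1, 2, 3 or 4 or control replicates 1, 2 or 4 (adjusted p up to 0.107), and with the mean over probe sets (-0.055, adjusted p 0.458). Of the 12 tested genes of neural and Schwann cells, where Pou3f1 is best known, Egr2 alone was called.

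The p53 and apoptosis list had 7 members called lower and 2 higher of 24 tested (37.5%), with a median of -0.059. Ccng1 encodes cyclin G1, a target of p53. Ccng1 read 18810, 18160, 18980 and 19190 in control and 13750, 12870, 14270 and 15250 after Pou3f1 knockdown. The difference was -0.42 ± 0.046 (SE, adjusted p 0.000183), and directly it was also lower than in Etv5 knockdown (-0.25, adjusted p 0.0271) and not called against Bcl6b knockdown (-0.22, 0.0619). Zmat3 (-0.26), Phlda3 (-0.24), Cdkn1a (-0.23), which encodes the cell cycle inhibitor p21, Trp53inp1 (-0.21), Eda2r (-0.21) and Ei24 (-0.20) were the other lower members. The p53 targets Mdm2 (-0.056, adjusted p 0.403) and Bbc3 (-0.03, 0.88) were not called. Bcl2, the gene of the founding inhibitor of apoptosis, was higher. Bcl2 read 278, 305, 295 and 298 in control and 413, 395, 446 and 422 after Pou3f1 knockdown. Its difference was 0.51 ± 0.057 (SE, adjusted p 0.000217), beside 0.60 and 0.51 in Etv5 and Bcl6b knockdown, but the mean over its probe sets was not called (0.15, adjusted p 0.082). Fas was the other higher member (0.24). With 1 array left out, 6 to 9 members were lower and 1 to 4 higher.

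In the glycolysis and hypoxia list, 6 of 24 tested genes were called, all higher (25%), with a median of 0.051. Pfkfb4, the glycolysis gene described above, is not in this list and was lower (-0.51, adjusted p 0.00781). Bnip3 encodes a mitochondrial protein that hypoxia induces. Bnip3 read 2204, 2256, 2182 and 2357 in control and 2870, 2776, 2684 and 2778 after Pou3f1 knockdown. The difference was 0.30 ± 0.037 (SE, adjusted p 0.000382). Pdk1, the gene of the kinase that shuts off pyruvate dehydrogenase, differed by 0.38 ± 0.08 (SE, adjusted p 0.0111), Ankrd37 by 0.35 and the glucose transporter gene Slc2a1 by 0.21, with Ndrg1 (0.21) and Tpi1 (0.13) also higher. Slc2a1 lost its call without control replicates 1 or 2 (adjusted p up to 0.0592), and averaged over probe sets it differed by 0.14. Most glycolytic enzyme genes did not pass the test, such as Ldha (-0.045, adjusted p 0.361), Pgk1 (0.054, 0.354) and Hk2 (0.039, 0.549). In the other 2 knockdowns Bnip3 differed by 0.49 and 0.41 and Ankrd37 by 0.32 and 0.25. With 1 array left out, 4 to 7 members were higher and at most 1 lower.

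The extracellular matrix list had the largest share of calls after interferon, 13 of 30 (43.3%), 9 lower and 4 higher, with a median of -0.064. Col4a1, the collagen gene of basement membranes, fell with its partner Col4a2. Col4a1 read 7413, 7577, 7099 and 7282 in control and 6329, 5882, 5717 and 6262 after Pou3f1 knockdown. The difference was -0.28 ± 0.039 (SE, adjusted p 0.000988), and -0.23 for Col4a2. Timp2 (-0.27), Col6a3 (-0.24), Col1a1 (-0.23), Timp1 (-0.19), Mmp2 (-0.17), Sparc (-0.15) and Fn1 (-0.12) were also lower. Of these, Timp2 alone was lower in both direct tests. Tnc rose. Tnc read 1639, 1725, 1814 and 1899 in control and 2532, 2414, 2314 and 2744 after Pou3f1 knockdown. Its difference was 0.50 ± 0.058 (SE, adjusted p 0.000281), beside 0.75 and 0.59 in Etv5 and Bcl6b knockdown, while a dim second probe set went from 75.9 to 69.5, and the mean over both was not called (0.20, adjusted p 0.216). Averaged over probe sets, Col1a1 was not called either (-0.15, 0.0776). Col11a1, Mmp13 (0.38) and Postn (0.15) were the other rises, and Mmp13 lost its call without control replicates 1 or 2 (adjusted p up to 0.0626). Col3a1 (-0.056, adjusted p 0.252) and Col1a2 (-0.10, 0.0628) were not called. With 1 array left out, 5 to 12 members were lower and 3 to 5 higher.

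Smaller groups held single clear changes. Prkar2a encodes a regulatory subunit of protein kinase A, the kinase that Pkia inhibits. Prkar2a read 1025, 1009, 986 and 984 in control and 752, 710.4, 719 and 766 after Pou3f1 knockdown. It fell by 0.44 on the log2 scale (adjusted p 7.18e-05), with -0.47 and -0.49 in Etv5 and Bcl6b knockdown, and Pkia and Pde4b (0.14) rose in the same list of 19. Pde4b lost its call without Pou3f1 knockdown replicates 1, 2 or 3 or control replicates 1, 2, 3 or 4 (adjusted p up to 0.111), and with the mean over probe sets (adjusted p 0.076). In that fit Prkar2a differed by -0.27 and Tnrc6a by 0.24, both called. Tnrc6a, the gene of a scaffold of microRNA silencing, rose, while its relative Tnrc6b fell. Tnrc6a read 5572, 5387, 5535 and 5237 in control and 7241, 7023, 7405 and 8417 after Pou3f1 knockdown. Its difference was 0.47 ± 0.051 (SE, adjusted p 0.000184), against -0.28 for Tnrc6b (adjusted p 0.0134) and -0.16 for Ago1 (0.0319), the Argonaute gene. In Etv5 and Bcl6b knockdown Tnrc6a differed from control by 0.57 and 0.46, and it was not called directly against either. Tnrc6b lost its call without control replicate 3 (adjusted p 0.051), and Ago1 without Pou3f1 knockdown replicates 2 or 3 or control replicates 1, 2 or 3 (adjusted p up to 0.092). In the exocyst and ESCRT-III list, likewise chosen with earlier results known, 5 of 21 were called (23.8%). Besides Exoc4 and Chmp3, Chmp2b (-0.29), Chmp1a (-0.17) and Chmp4b (-0.16) were lower; Chmp2b lost its call without Pou3f1 knockdown replicates 1, 2 or 3 or control replicates 1, 2 or 4 (adjusted p up to 0.123), and Chmp1a without Pou3f1 knockdown replicates 2 or 3 or control replicates 1, 2, 3 or 4 (adjusted p up to 0.0976). In the NF-kB list, the neutrophil chemokine genes Cxcl5 (0.54 ± 0.056 SE, adjusted p 0.000131) and Cxcl1 (0.21 ± 0.039 SE, adjusted p 0.00552) rose and the adhesion molecule gene Vcam1 fell (-0.26 ± 0.04 SE, adjusted p 0.00179), of 22. In Etv5 and Bcl6b knockdown Cxcl5 differed from control by 0.41 and 0.43, Cxcl1 by 0.30 and 0.28, and Vcam1 by 0.051 and -0.32. Neither chemokine gene was called directly against either knockdown.

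In lists of growth and biosynthesis the shares called ran from 0 to 11.5%, beside 10.3% of all tested genes. No member was called by limma among 27 genes of oxidative phosphorylation (6 at an unadjusted p under 0.05), of which Cox6a1 differed by -0.07 (adjusted p 0.251) and Atp5b by -0.051 (0.311). None was called by limma among 25 cytoplasmic ribosomal protein genes (5 at an unadjusted p under 0.05), whose differences lay between -0.092 and 0.21. Of 25 S phase genes Ccne2 was higher (0.27), and of 25 genes of G2 and M phase Nek2 (0.27 ± 0.044 SE, adjusted p 0.00291) and Ttk (0.22), both kinases of mitosis. Ccne2 lost its call in 7 of 8 fits that left out 1 array, keeping it without Pou3f1 knockdown replicate 1 (adjusted p up to 0.109), and Ttk without Pou3f1 knockdown replicates 1, 2 or 3 or control replicates 1, 2, 3 or 4 (adjusted p up to 0.127). With the mean over probe sets none of these 3 was called, with Ccne2 at 0.27 (adjusted p 0.0621), Nek2 at 0.14 (0.0745) and Ttk at 0.15 (0.218). Of 25 sterol and fatty acid genes Hmgcs1 was higher (0.19), and it lost its call without Pou3f1 knockdown replicates 2 or 3 or control replicates 1, 2 or 3 (adjusted p up to 0.0896). Of 26 genes of the unfolded protein response Psat1 (-0.17), Edem1 (-0.15) and Pdia6 (-0.13) were lower. A second bright probe set of Psat1 differed by 0.015, Edem1 lost its call without Pou3f1 knockdown replicate 2 or control replicates 1 or 3 (adjusted p up to 0.0634), and Pdia6 without Pou3f1 knockdown replicates 2 or 3 or control replicates 1, 2, 3 or 4 (adjusted p up to 0.1). None of the 3 was called with the mean over probe sets (Psat1 -0.076, Edem1 -0.098 and Pdia6 -0.21, adjusted p 0.219, 0.0778 and 0.241).

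**Figure D4:**
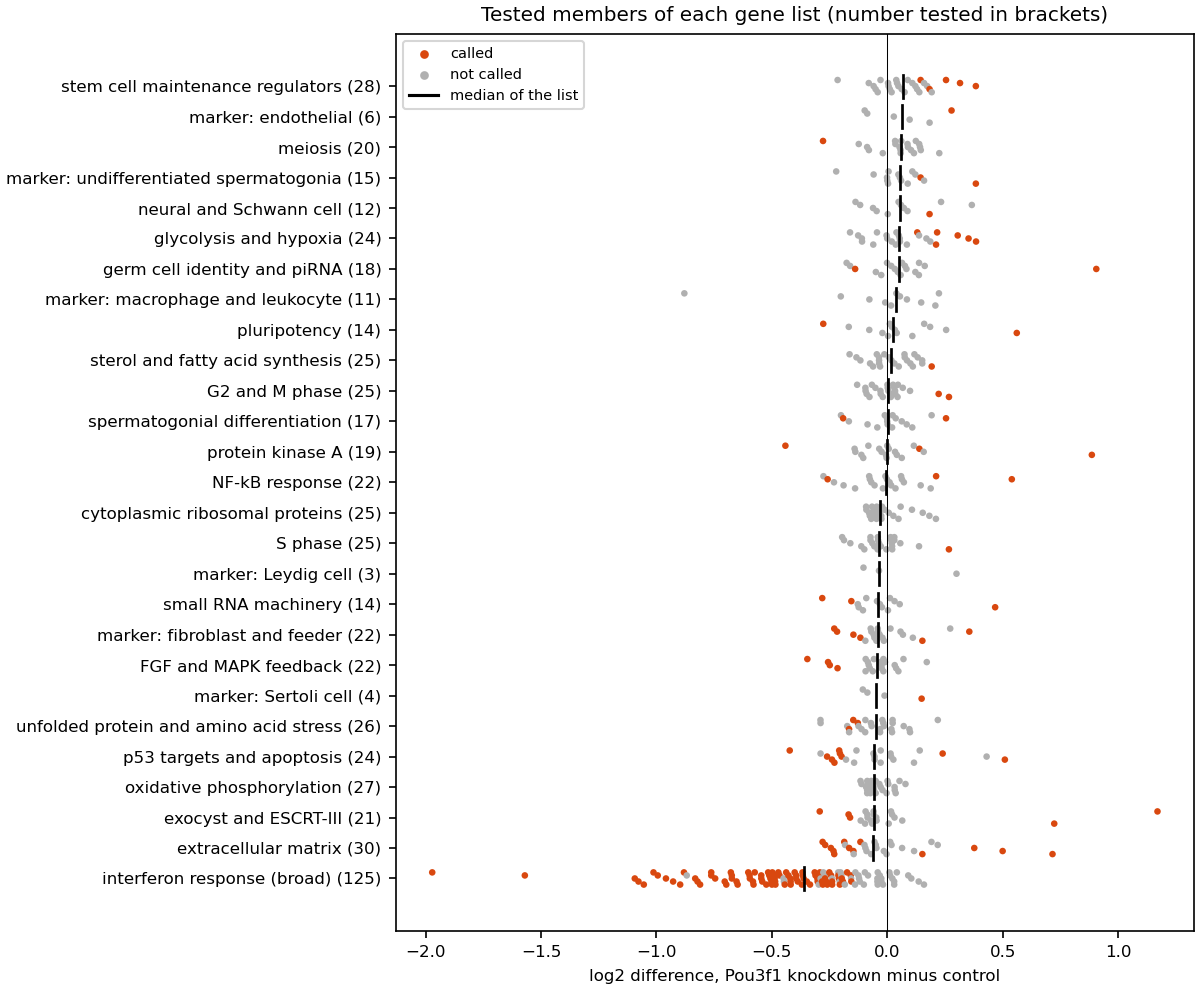
Log2 difference between Pou3f1 knockdown and control of every tested member of the 27 gene lists other than the POU list, 1 point per gene, ordered by the list median (bar), with called genes in orange and n = 4 arrays per group. The interferon list has a median of -0.36, and the medians of the other lists lie between -0.064 and 0.068.

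Markers of the labelled cell type were present beside those of others. Of 16 markers of undifferentiated spermatogonia on the array 15 were bright enough to test, and their summed intensity ran from 49590 to 50820 in control and from 50100 to 53180 after knockdown. All 22 fibroblast and feeder markers on the array were bright enough to test, with sums of 230600 to 232000 in control and 230800 to 237300 after knockdown, a sum that includes very bright probe sets such as that of Vim. Vim, the gene of the filament protein vimentin, was the clearest among them. Vim read 33820, 32410, 32620 and 32860 in control and 40640, 40050, 40830 and 47200 after Pou3f1 knockdown. Its difference was 0.35 ± 0.048 (SE, adjusted p 0.000803), beside 0.33 and 0.31 in Etv5 and Bcl6b knockdown, and Postn rose, while Col1a1, Thbs1 (-0.22), Sparc and Fn1 fell. Thbs1 lost its call without Pou3f1 knockdown replicates 1, 2 or 3 or control replicates 1, 2, 3 or 4 (adjusted p up to 0.112). In bulk RNA, fewer cells of a type and less RNA per cell cannot be told apart, and the part of fibroblasts in the matrix changes was not tested.

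Markers of other somatic cells were present in part. Of 15 Sertoli cell markers on the array 4 were tested, and the defining genes Amh (2.68 in control), Fshr (3.1) and Gata1 (4.83) were near the floor of the signal, while Rhox5 read 1757, Sox9 366 and Inhbb 219, and Clu, which many cell types express, was higher (0.15), with probe sets that disagreed and a call lost without Pou3f1 knockdown replicates 2 or 3 or control replicates 1, 2 or 3 (adjusted p up to 0.104) and with the mean over probe sets (0.051, adjusted p 0.443). The Sertoli sums ran from 7317 to 7851 in control and from 7872 to 8092 after knockdown, most of it Clu. Of 5 Leydig cell markers 3 were tested and none was called by limma (2 at an unadjusted p under 0.05), with Cyp11a1 at 2682 and Star at 1739 in control and Cyp17a1 near the floor at 3.48, and with sums of 4619 to 4794 in control and 4403 to 4745 after knockdown. Among them Cyp11a1 differed by -0.037 (adjusted p 0.628), Star by -0.10 (0.0707) and Hsd3b1 by 0.30 (0.0532). Of 21 macrophage and leukocyte markers 11 were tested and none was called by limma (3 at an unadjusted p under 0.05), with summed intensities of 1168 to 1311 in control and 1231 to 1408 after knockdown. Laptm5 differed there by 0.22 (adjusted p 0.0801), Tyrobp by 0.054 (0.692) and Lyz2, the lysozyme gene, by -0.88 (0.0567). Of 15 endothelial markers 6 were tested and Egfl7 was higher (0.28), a call lost without Pou3f1 knockdown replicate 3 or control replicates 1 or 3 (adjusted p up to 0.0786) and with the mean over probe sets (0.16, adjusted p 0.0851), with sums of 908.2 to 983.9 in control and 942 to 1052 after knockdown. The sums of macrophage markers overlapped between the groups. Laptm5, the brightest of them, weighs most in these sums, and another bright probe set of it went from 42.1 to 32.3 (-0.33). The macrophage genes Adgre1 (5.32 in control), C1qa (3.33) and Cd74 (3.73) were near the floor of the signal. The part of macrophages in the fall of interferon genes was not tested.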

How the data were processed

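Expression was measured on Affymetrix mouse genome arrays, 1 per sample. Per the labels' protocols RNA was extracted with Trizol, treated with DNase, copied from poly(T) primers and labelled with biotin. The values are linear intensities as deposited by the authors. Per the submitters' processing notes Partek 6.4, GCRMA, MAS5 and Affymetrix Expression Console 1.1 were used, with no role or order given, so the background correction is not known and low intensities are least certain. The annotation given named 34945 of 45037 probe sets with 1 gene, 932 with several and 9160 with none; only the first were used. Each gene was read from its brightest probe set, log2(value + 1) was taken without further scaling, and genes above the array's median on at least 4 of the 8 arrays were tested with limma 3.58.1 (R 4.3.3; lmFit, eBayes with an intensity trend) and Benjamini-Hochberg adjustment over 11078 genes. Direct tests between knockdowns were fitted alike.

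Lists and members were chosen with earlier results of these data known. Named were the target, Ccl5 and Rsad2; the 15 largest rises and falls outside the interferon list whose groups do not overlap; the 8 largest interferon falls; the 8 largest changes in all direct tests; and up to 4 called genes per list, or its 2 brightest members where none was called. Unnamed clones were left out, and other genes were chosen after their values were seen. Promoter sequences are RefSeq's (GRCm38.p6). The fit was tested on simulated data. Alternatives in scaling, pseudocount, filter, probe sets, variance model and arrays were run. Figures were drawn with matplotlib 3.10.9 (Python 3.11.15).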

Additional observations from a re-analysis of the deposited data

Results flagged for a closer look

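In 5 of 198 groups of 4 arrays of the named genes (2.53%), 1 array lay apart from the rest, with a gap to its neighbour above the critical share (95%) of the group's range for 4 values. Chance does so in about 1 in 20 groups. Lmnb2 had its lowest value on Pou3f1 knockdown replicate 3 (gap 0.835 of the range). Oasl1 was lowest on control replicate 4 (0.868), which lowers the control mean against which its fall was measured. Hmgcs1 was highest on control replicate 4 (0.837), in the group against which its small rise was called. The ribosomal protein gene Rpl13a was lowest on Pou3f1 knockdown replicate 4 (0.849), and Vim was highest on the same array (0.883).

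The change also differed between knockdowns in direct tests by limma. Of the interferon genes lower than control, 74 were lower than in both other knockdowns, as were 28 genes outside the list, and 2 genes were higher than in both.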

How the results depend on the processing

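The fall of Pou3f1 itself kept its direction and its call under every alternative run, between -0.80 and -0.61 with 1 array left out. Counts moved more. With 1 array left out, higher calls ranged from 266 to 527, lower calls from 382 to 848, lower calls outside the interferon list from 310 to 758 and lower interferon calls from 72 to 90. A fit over all 16 arrays gave 114, 136, 83 and 53, and it includes Bcl6b knockdown replicate 1; without that array 1278 genes were called, 1049 of them shared with the 1144. Array weights gave 650 higher calls, and testing all 18193 genes gave 416 lower calls outside the list, with more genes in the adjustment. Against Etv5 knockdown the count ranged from 155 to 367 with 1 array left out. Against Bcl6b knockdown it ranged from 184 to 480, and was 624 after median centring and 73 with replicate 1. Causes were not tested otherwise. Of the 91 named genes called, the target included, 49 lost their call in the fit over all 16 arrays. With the mean over probe sets 20 lost it, in a fit that held 97 of the 98 named genes besides the target. With no filter 20 lost it, without the intensity trend 17, after median centring 10 and with the replicate block 9. Against control, signs turned for 5 uncalled genes: Rpl13a (0.0096 with the mean over probe sets, 0.017 with array weights, and -0.032 to 0.028 with 1 array left out, above 0 without Pou3f1 knockdown replicate 4), Rplp0 (0.0089 after quantile normalization), Cyp11a1 (0.031) and Laptm5 (-0.0063) with the mean over probe sets, and Tyrobp (-0.0069 to 0.098 with 1 array left out, below 0 without Pou3f1 knockdown replicate 1). Same-numbered arrays correlated between -0.0039 and 0.072 in their deviations, and differently numbered ones between -0.14 and 0.12. Whether equal numbers mark pairs was not tested. With the replicate number as a block, 433 genes were higher, 656 lower, 569 lower outside the list and 87 lower in it, and 308 were called against Etv5 knockdown; not every array correlated best with its own number. Low signal limits 7115 untested genes.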
